A study of Drosophila melanogaster with 15 samples.

Results

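The genes described here are the structural cuticle protein families of *Drosophila melanogaster*. They were chosen by name, as genes beginning with Cpr and a number, Twdl, Lcp, Ccp84, Acp and a number, or Edg, that reached 1 TPM in at least 1 of 15 libraries. TPM, the unit in which kallisto gives transcript abundance, is a level per transcript length that is scaled to the same total in every library. Of 17117 genes in the table, 139 had such a name and 31 reached 1 TPM. The level itself chose the genes, so levels are given as a description without a test.

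RNA was measured in whole mated adult females about 7 days old, pooled as 5 flies per library. The groups were *foxo* mutants (the null line foxo Δ94) after 16 h at 1% oxygen (4 libraries) and in normoxia (4 libraries), and w1118 control flies after the same hypoxia (4 libraries) and in normoxia (3 libraries, numbered 2 to 4). *foxo* encodes the transcription factor downstream of insulin signaling, and the mutation was present in every tissue throughout life. The study asked which hypoxia responses need FOXO. Values below are listed by replicate number.

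Insect cuticle is a composite of chitin fibres and proteins that the epidermis secretes, largely during the moults. Most of its proteins carry the Rebers and Riddiford consensus, a chitin-binding sequence that defines the Cpr family and is shared by the larval cuticle proteins (Lcp), the Ccp84 cluster and Edg78E. Tweedle (Twdl) proteins are a separate family known for mutants with a short and wide body. Each gene is typically active in a narrow stage or region of the body, and much of the adult cuticle is made before and shortly after eclosion.

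The 31 genes were 23 of 70 Cpr genes, 4 of 15 Lcp genes, 2 of 3 Edg genes (ecdysone-dependent genes first found in imaginal discs), 1 of 25 Twdl genes and 1 of 2 adult cuticle Acp genes. None of 7 Ccp84 genes reached 1 TPM. The pattern also matched 17 Acp genes that encode accessory gland proteins of the male seminal fluid, and none of these reached 1 TPM. Of the 108 genes left out, 17 were listed at 0 in every library. Just inside the threshold were *Cpr64Ac* (1.05 TPM in its highest library), *Edg78E* (1.18 TPM) and *Acp1* (1.18 TPM). Just outside were the accessory gland genes *Acp24A4* (0.984 TPM) and *Acp54A1* (0.862 TPM) and the larval gene *Lcp65Ac* (0.862 TPM).

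By chromosome arm, the genes were 14 of 50 on 3L, 12 of 32 on 2R, 3 of 35 on 3R, 2 of 14 on 2L and 0 of 8 on X. Several lie side by side (coordinates are those of the dm6 assembly). The 65A cluster on 3L (6130386 to 6161589) held 4 of 17 pattern genes above 1 TPM, the 49A cluster on 2R (12376626 to 12415170) held 4 of 8, the 47E cluster on 2R (11251751 to 11278445) held 3 of 7, and the 62B cluster on 3L (1824129 to 1842084) held 2 of 3. Within 47E, *Cpr47Ee* and *Cpr47Ef* end 58 bp apart on opposite strands, and *Cpr47Eg* follows 5381 bp further on.

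Levels were very uneven. Only 6 genes were at or above 1 TPM in all 15 libraries (*Cpr65Au*, *Cpr49Ab*, *Cpr67B*, *Cpr57A*, *Cpr49Ae* and *Cpr62Bb*). At the other end, 6 genes reached 1 TPM in only 1 group (*Cpr66D*, *Cpr49Aa* and *Acp1* in normoxic w1118, and *Cpr65Ax2*, *Cpr64Ac* and *Edg78E* in hypoxic *foxo* mutants). *Cpr65Au* averaged 139 TPM and *Cpr49Ab* 86.2 TPM over all libraries, followed by *Cpr67B* at 35.7 TPM and *Cpr57A* at 13.3 TPM. These 4 genes made up between 74.3% and 90.0% of the summed level in each library, and the other 27 genes together reached between 30.7 and 67.2 TPM.

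The summed level of the 31 genes was 357, 318, 295 and 210.1 TPM in hypoxic *foxo* mutants, against 537, 546, 342 and 322 TPM in normoxic *foxo* mutants. It was 217, 221, 180.0 and 186 TPM in hypoxic w1118, against 333, 343 and 423 TPM in normoxic w1118. Hypoxic and normoxic libraries of w1118 did not overlap, while those of *foxo* mutants did. Without *Cpr65Au* and *Cpr49Ab* the sums were 82.6 to 96.2 TPM in hypoxic and 82.4 to 110.2 TPM in normoxic *foxo* mutants, and 98.6 to 138 TPM in hypoxic and 77.1 to 96.1 TPM in normoxic w1118. The sums are a description, since a sum over genes chosen by their level was not tested.

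**Figure D1:**
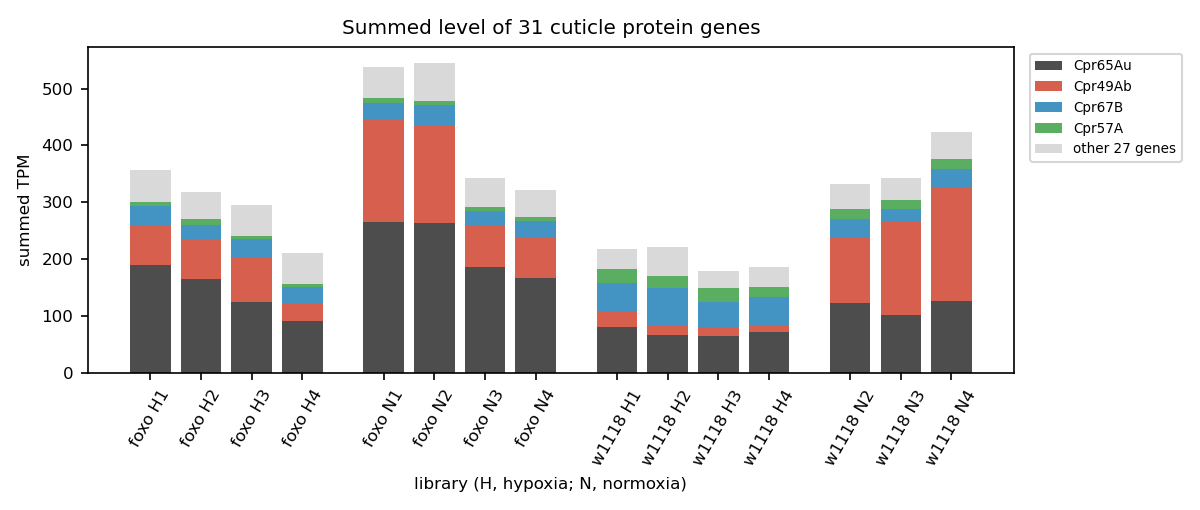
Summed TPM of the 31 cuticle protein genes (vertical axis) in each of the 15 libraries (horizontal axis), with the 4 genes of the highest mean level as coloured blocks and the other 27 genes in grey. *Cpr65Au* and *Cpr49Ab* make up 57.8% to 83.2% of the bar in the *foxo* and normoxic w1118 libraries and 37.5% to 49.5% in the hypoxic w1118 libraries, and the *Cpr49Ab* block is smallest in the 4 hypoxic w1118 libraries (10.7 to 25.9 TPM).

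Some facts of the whole series bear on these values. *foxo* transcripts were at 0.0145 to 0.257 TPM in the mutants and 18.3 to 39.9 TPM in w1118. The yolk protein genes *Yp1* to *Yp3*, markers of female fat body and follicle cells, summed to 8424 to 11782 TPM in hypoxic and 18413 to 22344 TPM in normoxic *foxo* mutants, and to 2267 to 4779 TPM in hypoxic and 14719 to 27257 TPM in normoxic w1118. Male gland and testis markers summed to at most 4.53 TPM (*foxo* normoxia replicate 1) and early embryo markers to between 2.3 and 19.2 TPM. Larval markers summed to 101 TPM in w1118 normoxia replicate 2 and to 3.93 to 44.3 TPM elsewhere. The part of these differences in any result below was not tested. In RNA of whole flies, fewer cells of a type and less RNA per cell cannot be told apart.

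Changes were fitted as log2(TPM + 1) with limma over all 10288 genes with a mean of at least 1 TPM in a group, with Benjamini-Hochberg adjusted p-values. A gene is said to rise or fall where TPM + 1 changed by over 1.5-fold with an adjusted p under 0.05. The pseudocount of 1 understates changes of genes near or below 1 TPM. Of the 31 genes, 26 were tested and 5 were not (*Lcp4*, *Cpr65Ax2*, *Acp1*, *Cpr64Ac* and *Edg78E*). Of the 26, 4 met the minimum through the mean of 1 group alone (*Cpr30B*, *Cpr49Aa* and *Cpr66D* in normoxic w1118, and *TwdlT* in normoxic *foxo* mutants) and so had to differ from it in the others. Others met it only through both hypoxic groups (*Cpr47Eg* and *Cpr67Fb*), both *foxo* groups (*Edg91*, *Cpr62Ba*, *Lcp1* and *Lcp65Ag2*) or both w1118 groups (*Cpr97Eb*). For these the filter itself favoured a difference between those groups and the rest. The changes of all these genes in such comparisons, and counts over the 26 genes, are a description. Of the 26, 20 averaged at least 1 TPM over all 15 libraries.

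In w1118, hypoxia raised 3 of the 26 tested genes (*Cpr47Eg*, *Cpr67Fb* and *Cpr67B*) and lowered 6 (*Cpr49Ab*, *Cpr62Bb*, *Cpr30B*, *Cpr49Aa*, *Cpr65Au* and *Cpr49Ae*). Over all genes tested, 12.9% rose and 8.74% fell (21.6% together). The median change of the 26 genes was -0.20 on the log2 scale, beside 0.22 for all genes. After rescaling the libraries by median-of-ratios, which moved the median of all genes to 0.01, 3 rose and 10 fell, against 7.46% and 12.1% of all genes. The count of 6 that fell was 2 without w1118 normoxia replicate 4 and 3 without w1118 hypoxia replicate 3. Among the 20 genes with a mean of at least 1 TPM over all libraries, 3 rose and 4 fell. Hypoxic and normoxic w1118 libraries did not overlap for 3 genes that were higher and 9 that were lower in hypoxia, against 25.2% and 12.5% of all genes.

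In *foxo* mutants, hypoxia raised 2 of the 26 genes (*Cpr47Eg* and *Edg91*) and lowered 5 (*Cpr51A*, *Cpr47Ef*, *Cpr62Bb*, *Cpr49Ae* and *Cpr65Au*). Over all genes, 7.06% rose and 11.8% fell (18.9% together). After rescaling, 2 rose and 4 fell, against 9.26% and 10.9% of all genes. The median change was -0.29 for the 26 genes and -0.04 for all genes. Libraries of the conditions did not overlap for 2 genes that were higher and 8 that were lower in hypoxia, against 10.3% and 16.1% of all genes. Across both genotypes, *Cpr47Eg* rose in each, and *Cpr65Au*, *Cpr49Ae* and *Cpr62Bb* fell in each. The difference between the hypoxia changes of the 2 genotypes (the interaction, with a positive value where the change was higher in *foxo* mutants) passed for 3 genes. It was positive for *Cpr49Ab* and *Edg91* and negative for *Cpr51A*, beside 1.07% of all genes positive and 1.55% negative (2.61% together). After rescaling, 1 was positive and 1 negative, against 1.67% and 1.09% of all genes.

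**Figure D2:**
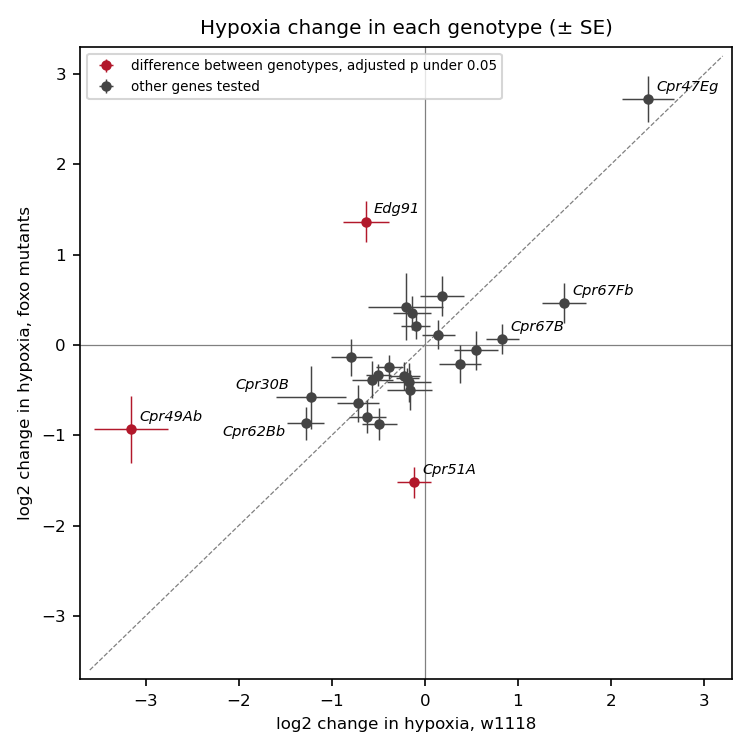
Log2 change of TPM + 1 in hypoxia in w1118 (horizontal axis) and in *foxo* mutants (vertical axis) for the 26 tested genes, with standard errors as bars and equal change as the dashed line. *Cpr49Ab* (-3.15 in w1118), *Cpr51A* (-1.52 in *foxo* mutants) and *Edg91* (1.37 in *foxo* mutants), in red, lie off the line, and *Cpr47Eg* lies far above 0 in both.

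*Cpr49Ab* (2R, 12378440 to 12379396) had the largest fall of the 26 genes in w1118 on the log2(TPM + 1) scale, while the ratio of means was larger for *Cpr30B* (19.5), a gene below 1 TPM in most libraries. It had 25.9, 15.7, 17.0 and 10.7 TPM in hypoxic w1118, against 114, 164 and 199 TPM in normoxic w1118. The groups were far apart, with a mean 9.18-fold higher in normoxia (log2 change -3.15, SE 0.397, adjusted p = 3.16e-05). In *foxo* mutants it had 69.9, 70.2, 78.6 and 30.4 TPM in hypoxia, against 182, 172, 71.4 and 72.6 TPM in normoxia. The *foxo* libraries overlapped, with normoxic replicates 3 and 4 at the level of the hypoxic ones, and the change did not pass (log2 change -0.93, SE 0.368, adjusted p = 0.0818). The difference between the genotypes was 2.22 (SE 0.541, adjusted p = 0.0409). It missed the threshold after rescaling (adjusted p = 0.0694), without a filter on low values, and in 10 of 15 fits that left out 1 library (adjusted p between 0.0619 and 0.127 in those), and lay between 0.0133 and 0.127 over all alternatives. The libraries in those 10 fits were w1118 normoxia replicates 3 and 4, w1118 hypoxia replicates 2 to 4, *foxo* normoxia replicates 3 and 4, and *foxo* hypoxia replicates 1 to 3. In hypoxia *Cpr49Ab* was higher in *foxo* mutants than in w1118 (log2 difference 1.77, SE 0.368, adjusted p = 0.00301), with no overlap.

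Its neighbour *Cpr49Aa*, which ends 1061 bp before it on the same strand, was near the floor in most libraries. It had 0.0573, 0.0704, 0.709 and 0.139 TPM in hypoxic w1118, against 0.509, 1.37 and 1.61 TPM in normoxic w1118. Hypoxia replicate 3 lay within the normoxic range. The gene entered the fit only through normoxic w1118, and its lower level in hypoxia (log2 change -0.79, SE 0.221, adjusted p = 0.0166) did not pass without w1118 normoxia replicate 3 (adjusted p = 0.0628). Without replicate 4 the gene was below the filter. *foxo* mutants had 0.137 to 0.738 TPM in hypoxia and 0.251 to 0.733 TPM in normoxia.

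*Cpr49Ae* and *Cpr49Ag* lie in the same cluster, 2684 bp apart. *Cpr49Ae* had 4.93, 4.03, 4.40 and 5.43 TPM in hypoxic *foxo* mutants, against 10.3, 10.4, 7.33 and 7.64 TPM in normoxic ones. It had 2.3, 3.96, 1.96 and 2.63 TPM in hypoxic w1118, against 4.20, 5.03 and 4.56 TPM in normoxic w1118. Hypoxic libraries were below normoxic ones in each genotype, and *foxo* libraries were above w1118 libraries in each condition. The change in hypoxia was -0.79 in *foxo* mutants (SE 0.183, adjusted p = 0.00483) and -0.62 in w1118 (SE 0.197, adjusted p = 0.0317). The w1118 change, close to the 1.5-fold limit, was lost in 6 fits that left out 1 of w1118 normoxia replicates 2 to 4 or w1118 hypoxia replicates 1, 3 and 4 (adjusted p between 0.0514 and 0.10). The difference between *foxo* mutants and w1118 was 0.64 in hypoxia (SE 0.183, adjusted p = 0.0242) and 0.82 in normoxia (SE 0.197, adjusted p = 0.0159). The hypoxic difference was lost without any 1 of w1118 hypoxia replicates 1, 3 and 4 and *foxo* hypoxia replicates 1 and 4, in the last through its size (adjusted p between 0.0257 and 0.0778). The normoxic one was lost without any 1 of w1118 normoxia replicates 2 and 4 and *foxo* normoxia replicates 1 and 2 (adjusted p between 0.0533 and 0.0761). With a pseudocount of 5 each of these calls of *Cpr49Ae* was lost. The w1118 change and the hypoxic difference were also lost in a fit to only the libraries compared. *Cpr49Ag* passed in no comparison and had 0.747 to 1.95 TPM in hypoxic and 1.40 to 2.33 TPM in normoxic *foxo* mutants, and 0.344 to 1.63 TPM in hypoxic and 0.716 to 1.38 TPM in normoxic w1118.

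*Cpr65Au* (3L, 6131242 to 6132109) had the highest mean level. It had 191, 165, 125 and 91.0 TPM in hypoxic *foxo* mutants, against 265, 264, 186 and 167 TPM in normoxic ones. It had 81.7, 67.1, 64.4 and 71.8 TPM in hypoxic w1118, against 124, 102 and 127 TPM in normoxic w1118. All 4 hypoxic w1118 libraries were below the normoxic ones, and the hypoxic *foxo* libraries overlapped the normoxic *foxo* range. The log2 change was -0.72 in w1118 (SE 0.226, adjusted p = 0.0298) and -0.65 in *foxo* mutants (SE 0.209, adjusted p = 0.0360), and the difference between them did not pass (0.07, SE 0.308, adjusted p = 0.923). The w1118 change missed the threshold without any 1 of normoxia replicates 2 and 4 and hypoxia replicates 2, 3 and 4 (adjusted p between 0.0555 and 0.108). The *foxo* change missed it after rescaling (adjusted p = 0.176) and without any 1 of *foxo* normoxia replicates 1 and 2 and hypoxia replicates 3 and 4 (adjusted p between 0.0847 and 0.113). This change was also lost without a filter on low values and in a fit to only the libraries compared. The higher level in *foxo* mutants passed in hypoxia under every alternative tried (log2 difference 0.94, SE 0.209, adjusted p = 0.00481). In normoxia it was 0.88 (SE 0.226, adjusted p = 0.0232) but missed the threshold after rescaling (adjusted p = 0.123) and without any 1 of w1118 normoxia replicates 2 to 4 and *foxo* normoxia replicates 1 and 2 (adjusted p between 0.0540 and 0.119). An antisense RNA gene overlaps 491 bp of its exons on the opposite strand, and it was not in the table.

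*Cpr49Ab* and *Cpr65Au* shared a split among normoxic *foxo* libraries, with replicates 1 and 2 well above replicates 3 and 4. The split was not particular to them. Among others, *Cpr49Ae*, *Cpr57A*, *Cpr62Ba*, *Cpr72Ec*, *Cpr73D* and *TwdlT* also had replicates 1 and 2 above replicates 3 and 4. *Cpr67B*, *Cpr62Bb*, *Cpr51A* and *Cpr47Ef* were among those without this order. The summed level of genes of surface hydrocarbon synthesis, the waxes of the adult cuticle, was 2439.9 and 2383 TPM in replicates 1 and 2 and 1919 and 1494 TPM in replicates 3 and 4. Tanning and pigment genes (160, 191, 141 and 134 TPM) and, narrowly, chitin synthesis genes (243, 265, 239 and 210 TPM) had the same order. Chitin turnover genes (622, 778, 674 and 573 TPM) did not, nor did apical matrix proteins, other cuticle and lens proteins, or regulators of cuticle genes. The part of this split in the results was not tested.

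*Cpr62Bb* (3L, 1832636 to 1835164) fell in both genotypes. It had 4.06, 1.68, 2.53 and 2.95 TPM in hypoxic *foxo* mutants, against 5.51, 6.98, 5.17 and 5.57 TPM in normoxic ones. It had 2.99, 3.04, 2.49 and 3.22 TPM in hypoxic w1118, against 9.69, 7.58 and 8.45 TPM in normoxic w1118. Neither genotype had any overlap between conditions (log2 change -1.28, SE 0.199, adjusted p = 0.000216 in w1118, and -0.87, SE 0.184, adjusted p = 0.00267 in *foxo* mutants). The difference of the changes was 0.41 (SE 0.271, adjusted p = 0.563).

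*Cpr62Ba*, 852 bp away on the same strand, followed genotype instead. It had 3.46, 3.65, 2.43 and 1.59 TPM in hypoxic *foxo* mutants, against 0.831, 0.467, 0.775 and 0.794 TPM in hypoxic w1118. In normoxia it had 4.66, 6.40, 3.08 and 3.24 TPM in *foxo* mutants, against 0.809, 1.36 and 0.647 TPM in w1118. All 8 *foxo* libraries lay above all 7 w1118 libraries, and the log2 difference was 1.11 in hypoxia (SE 0.222, adjusted p = 0.00220) and 1.44 in normoxia (SE 0.240, adjusted p = 0.00106). The gene met the minimum only through the *foxo* groups, so its difference between genotypes is a description. Its changes in hypoxia did not pass (-0.49 in *foxo* mutants and -0.16 in w1118, adjusted p = 0.129 and 0.637).

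*Cpr47Eg* (2R, 11277957 to 11278445) had the largest rise in hypoxia on this scale. It had 5.78, 7.02, 11.5 and 7.99 TPM in hypoxic *foxo* mutants, against 0.221, 0.694, 0.104 and 0.401 TPM in normoxic ones. It had 4.64, 11.4, 4.28 and 7.38 TPM in hypoxic w1118, against 0.383, 0.592 and 0.295 TPM in normoxic w1118. Every normoxic library was below 1 TPM and every hypoxic one above 4 TPM. The gene met the minimum only through the hypoxic groups, so its rise is a description. The ratio of means was 22.7 in *foxo* mutants (log2 change 2.72, SE 0.258, adjusted p = 1.97e-06) and 16.4 in w1118 (2.40, SE 0.279, adjusted p = 1.48e-05). The difference between the changes was 0.33 (SE 0.380, adjusted p = 0.717), and no difference between genotypes passed in either condition.

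The neighbours of *Cpr47Eg* did not share this rise. *Cpr47Ef* had 2.65, 1.52, 1.90 and 2.22 TPM in hypoxic *foxo* mutants, against 4.57, 4.68, 5.79 and 3.51 TPM in normoxic ones. It had 0.713, 1.33, 0.422 and 0.637 TPM in hypoxic w1118, against 1.40, 1.29 and 1.67 TPM in normoxic w1118. It fell in *foxo* mutants (log2 change -0.87, SE 0.178, adjusted p = 0.00201), while the w1118 change of -0.49 did not pass (adjusted p = 0.0747) but did after rescaling (0.0149), with a pseudocount of 0.1 and without w1118 hypoxia replicate 2. In both conditions it was higher in *foxo* mutants (log2 difference 0.80 in hypoxia, adjusted p = 0.00495, and 1.19 in normoxia, adjusted p = 0.000854). *Cpr47Ee* had 4.25, 1.82, 4.63 and 3.51 TPM in hypoxic *foxo* mutants, against 0.911, 0.928, 0.782 and 0.821 TPM in hypoxic w1118 (log2 difference 1.24, SE 0.191, adjusted p = 0.000229). In normoxia it had 2.28, 2.87, 2.27 and 2.39 TPM in *foxo* mutants and 0.992, 0.763 and 1.45 TPM in w1118. All *foxo* libraries were above all w1118 libraries. The normoxic difference (0.75, SE 0.206, adjusted p = 0.0329) missed the threshold without any 1 of w1118 normoxia replicates 2 and 3 and *foxo* normoxia replicates 1 to 4 (adjusted p between 0.0576 and 0.167).

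**Figure D3:**
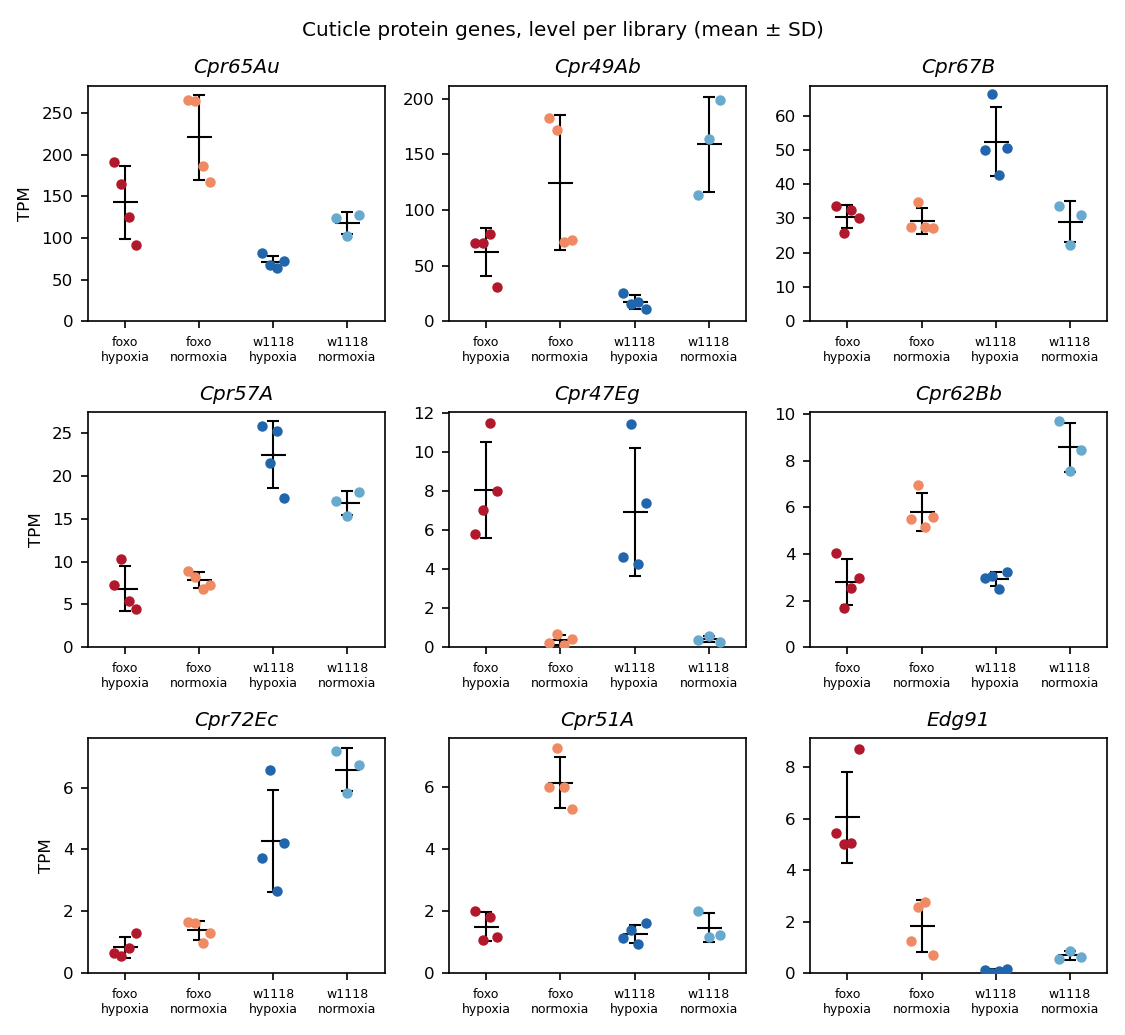
TPM per library (vertical axes, each from 0) of 9 cuticle protein genes in hypoxic and normoxic *foxo* mutants and hypoxic and normoxic w1118 (horizontal axes), with points for libraries and bars for the mean and SD. *Cpr47Eg* is high in both hypoxic groups, *Cpr51A* in normoxic *foxo* mutants, *Edg91* in hypoxic *foxo* mutants, and *Cpr57A* and *Cpr72Ec* in both w1118 groups.

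*Cpr67B* and *Cpr67Fb* were the other genes that rose in w1118. *Cpr67B* (3L, 9404797 to 9406174) had 50.1, 66.4, 42.7 and 50.4 TPM in hypoxic w1118, against 33.6, 22.3 and 31.1 TPM in normoxic w1118 (log2 change 0.83, SE 0.181, adjusted p = 0.00326). The groups did not overlap. In *foxo* mutants it had 33.5, 25.8, 32.6 and 30.2 TPM in hypoxia and 27.4, 34.8, 27.5 and 27.2 TPM in normoxia (0.06, SE 0.167, adjusted p = 0.838). The difference between the changes did not pass (-0.77, SE 0.246, adjusted p = 0.144). In hypoxia *Cpr67B* was lower in *foxo* mutants than in w1118 (log2 difference -0.75, SE 0.167, adjusted p = 0.00513), but not after rescaling (-0.50, adjusted p = 0.0593).

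*Cpr67Fb* had 3.57, 2.96, 4.03 and 2.32 TPM in hypoxic w1118, against 0.807, 0.433 and 0.258 TPM in normoxic w1118 (log2 change 1.49, SE 0.237, adjusted p = 0.000272). It had 1.27, 1.39, 1.05 and 2.78 TPM in hypoxic *foxo* mutants, against 0.678, 1.62, 0.547 and 0.704 TPM in normoxic ones (0.46, SE 0.220, adjusted p = 0.150). Conditions were apart in w1118 and overlapped in *foxo* mutants, and the difference of the changes did not pass (-1.03, SE 0.324, adjusted p = 0.135). Since *Cpr67Fb* met the minimum only through the hypoxic groups, its rise is a description. The lower level in hypoxic *foxo* mutants than in hypoxic w1118 (log2 difference -0.71, SE 0.220, adjusted p = 0.0356) was lost after rescaling (adjusted p = 0.107) and without any 1 of w1118 hypoxia replicates 1 to 3 and *foxo* hypoxia replicates 1 to 3 (adjusted p between 0.0536 and 0.118), and *foxo* hypoxia replicate 4 lay within the w1118 range. This lower level was also lost with pseudocounts of 0.1 and 5 and in a fit to only the libraries compared. An antisense RNA gene, not in the table, overlaps 389 bp of the exons of *Cpr67Fb*.

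*Cpr30B* in w1118 rested on 1 library. It had 0.130, 0.107, 0.0976 and 0.158 TPM in hypoxic w1118, against 1.19, 0.225 and 5.78 TPM in normoxic w1118, where replicate 4 alone stood high. It too entered only through normoxic w1118, and its lower level in hypoxia (log2 change -1.23, SE 0.376, adjusted p = 0.0258) was lost without w1118 hypoxia replicate 3 (adjusted p = 0.0554), and without w1118 normoxia replicate 4 the gene was below the filter and was not tested. *foxo* mutants had 0 to 0.319 TPM in hypoxia and 0.369 to 1.06 TPM in normoxia.

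*Cpr51A* (2R, 14512559 to 14515211) was high in 1 group. It had 2.01, 1.06, 1.81 and 1.16 TPM in hypoxic *foxo* mutants, against 5.99, 7.27, 6.0 and 5.31 TPM in normoxic ones. It had 1.13, 1.39, 0.938 and 1.61 TPM in hypoxic w1118, against 2.02, 1.17 and 1.22 TPM in normoxic w1118. The 4 normoxic *foxo* libraries were above the other 11. The log2 change in hypoxia was -1.52 in *foxo* mutants (SE 0.172, adjusted p = 9.68e-06) and -0.12 in w1118 (SE 0.186, adjusted p = 0.658). The difference was -1.40 (SE 0.253, adjusted p = 0.00652), and it passed in all 21 alternatives. In normoxia the gene was higher in *foxo* mutants (1.54, SE 0.186, adjusted p = 5.66e-05), and in hypoxia the difference was 0.14 (SE 0.172, adjusted p = 0.581).

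*Edg91* (3R, 17610856 to 17611511), which encodes a glycine-rich pupal cuticle protein, rose in hypoxia in *foxo* mutants. It had 5.44, 5.01, 5.07 and 8.70 TPM in hypoxic *foxo* mutants, against 1.24, 2.59, 2.76 and 0.711 TPM in normoxic ones. It had 0.126, 0, 0.0713 and 0.154 TPM in hypoxic w1118, against 0.562, 0.874 and 0.640 TPM in normoxic w1118. The conditions did not overlap in either genotype, and lay in opposite orders. The change was 1.37 in *foxo* mutants (SE 0.230, adjusted p = 0.000404), and -0.64 in w1118 (SE 0.248, adjusted p = 0.0721, and 0.0303 after rescaling). The difference between the changes was 2.0 (SE 0.338, adjusted p = 0.00419) and passed in all 21 alternatives. In hypoxia the gene was higher in *foxo* mutants (log2 difference 2.67, SE 0.230, adjusted p = 7.68e-07). Since *Edg91* met the minimum only through the *foxo* groups, this difference is a description. Of its 2 annotated transcripts, 1 carried 100% of the level in both *foxo* groups and was listed at 0 in all 4 hypoxic w1118 libraries, whose values above 0 came from the other transcript. The related ecdysone-dependent gene *Edg78E* had 0.815, 0.404, 0.333 and 1.18 TPM in hypoxic *foxo* mutants and at most 0.621 TPM in any other library, and was not tested.

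The genotypes were also compared within each condition. This sets 1 mutant line against 1 control line, so *foxo* loss and the background of the lines cannot be told apart. In normoxia, 8 of 26 were higher in *foxo* mutants than in w1118 (*Cpr51A*, *Cpr47Ef*, *Cpr62Ba*, *TwdlT*, *Cpr49Ae*, *Cpr65Au*, *Lcp65Ag2* and *Cpr47Ee*) and 3 were lower (*Cpr72Ec*, *Cpr57A* and *Cpr97Eb*). Over all genes, 5.14% were higher and 2.84% lower (7.98% together). After rescaling, 7 were higher and 3 lower, against 5.21% and 3.70% of all genes. Libraries of the genotypes did not overlap for 9 genes that were higher and 5 that were lower in normoxic *foxo* mutants, against 20.4% and 15.5% of all genes. The median difference was 0.29 for the 26 genes and 0.04 for all genes. The count of 8 was 4 without *foxo* normoxia replicate 1, and 5 without *foxo* normoxia replicate 2 or without any 1 of the 3 normoxic w1118 libraries. In the 20 genes with a mean of at least 1 TPM over all libraries, 6 were higher and 2 lower.

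In hypoxia, 9 of 26 were higher in *foxo* mutants (*Edg91*, *Cpr47Ee*, *Cpr62Ba*, *Cpr49Ab*, *Cpr65Au*, *Cpr47Ef*, *Cpr60D*, *Lcp1* and *Cpr49Ae*) and 4 were lower (*Cpr57A*, *Cpr72Ec*, *Cpr67B* and *Cpr67Fb*). Over all genes, 6.91% were higher and 7.34% lower. After rescaling, 11 were higher and 2 lower, against 9.71% and 4.40% of all genes. In hypoxia the genotypes did not overlap for 10 genes that were higher and 4 that were lower in *foxo* mutants, against 7.67% and 8.49% of all genes. The median difference was 0.16 for the 26 genes and -0.22 for all genes (0.29 and 0.00 after rescaling). The comparisons within normoxia and within hypoxia share libraries with the hypoxia comparisons above and are not independent of them.

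**Figure D4:**
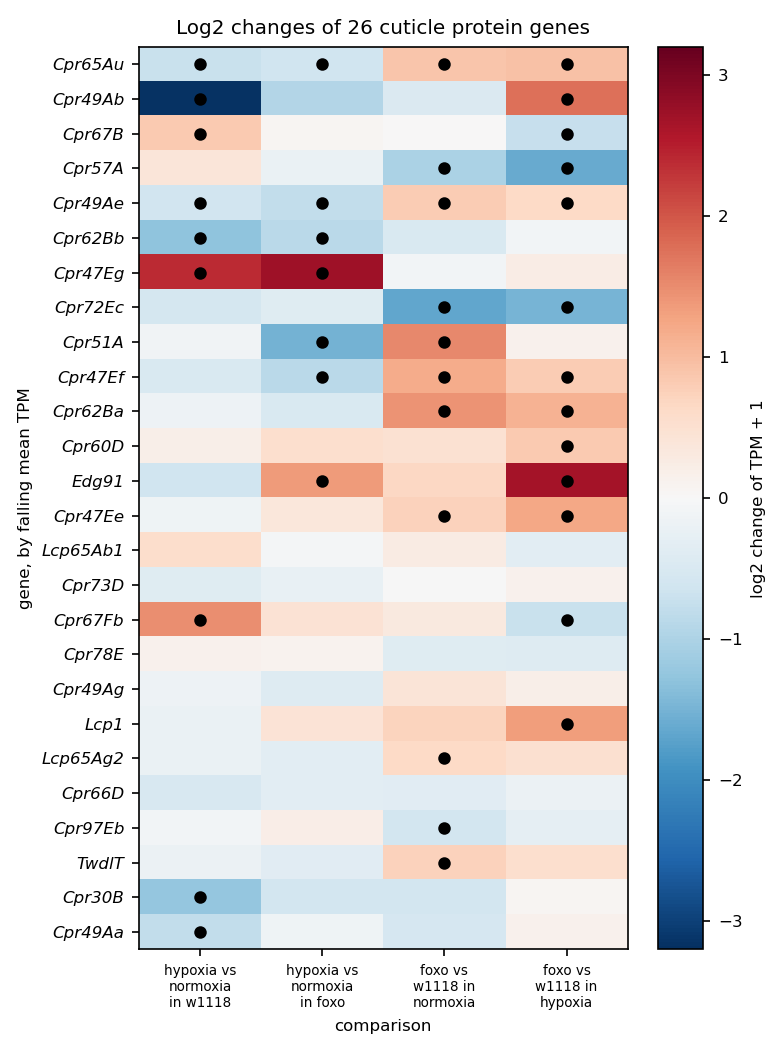
Log2 change of TPM + 1 (colour) of the 26 tested genes, in rows by falling mean level, in 4 comparisons (columns), with a dot where the adjusted p was under 0.05 and the change over 1.5-fold. *Cpr47Eg* is red in both hypoxia columns, and *Cpr57A* and *Cpr72Ec* are blue in both genotype columns.

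*Cpr57A* (2R, 20548368 to 20550117) was lower in *foxo* mutants throughout. It had 7.23, 10.3, 5.38 and 4.50 TPM in hypoxic *foxo* mutants, against 25.8, 21.5, 25.2 and 17.4 TPM in hypoxic w1118. In normoxia it had 8.89, 8.23, 6.81 and 7.32 TPM in *foxo* mutants, against 17.1, 15.4 and 18.2 TPM in w1118. All 8 *foxo* libraries lay below all 7 w1118 libraries. The log2 difference was -1.62 in hypoxia (SE 0.210, adjusted p = 4.79e-05) and -1.02 in normoxia (SE 0.227, adjusted p = 0.00919), and both passed under every alternative. Hypoxia changed it by 0.38 in w1118 (adjusted p = 0.226) and by -0.21 in *foxo* mutants (adjusted p = 0.529). The gene *Obp57d* overlaps all 1488 bp of its exons on the same strand. The group means of *Obp57d* (at most 0.180 TPM) equal those of the minor *Cpr57A* transcript, so they give no separate level of *Obp57d*.

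*Cpr72Ec* (3L, 16365894 to 16367340), a protein of the corneal lens, was also lower. It had 0.667, 0.549, 0.829 and 1.30 TPM in hypoxic *foxo* mutants, against 3.72, 6.55, 2.65 and 4.21 TPM in hypoxic w1118. In normoxia it had 1.65, 1.63, 0.993 and 1.29 TPM in *foxo* mutants, against 7.17, 5.83 and 6.73 TPM in w1118. The ranges of the genotypes were apart, with a log2 difference of -1.49 in hypoxia (SE 0.204, adjusted p = 8.09e-05) and -1.67 in normoxia (SE 0.220, adjusted p = 0.000131), and both passed under every alternative. The change of *Cpr72Ec* in hypoxia did not pass in w1118 (-0.57, adjusted p = 0.0711) or in *foxo* mutants (-0.39, adjusted p = 0.200). In w1118 it passed after rescaling (-0.76, adjusted p = 0.00730) and without w1118 hypoxia replicate 2. The other lens protein of the Cpr family, *Cpr66D*, had 0.417 to 0.752 TPM in hypoxic and 0.891 to 0.966 TPM in normoxic *foxo* mutants, and 0.582 to 0.820 TPM in hypoxic and 1.08 to 1.88 TPM in normoxic w1118. It passed in no comparison. In w1118 its hypoxic libraries lay below the normoxic ones, with a mean 2.0-fold higher in normoxia. On the log2(TPM + 1) scale this change was under 1.5-fold (-0.50, adjusted p = 0.0127). It passed after rescaling (-0.61, adjusted p = 0.00366), with a pseudocount of 0.1 and without w1118 normoxia replicate 3. The fit gave genotype differences of -0.19 in hypoxia and -0.35 in normoxia (adjusted p = 0.314 and 0.133). *retinin*, a further lens protein, averaged 25.7 ± 1.67 TPM in hypoxic and 18.6 ± 2.34 TPM in normoxic *foxo* mutants (SD, n = 4 each), and 22.9 ± 3.56 TPM in hypoxic (SD, n = 4) and 31.2 ± 1.35 TPM in normoxic w1118 (SD, n = 3).

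Over all libraries, 3 of the 26 genes had every *foxo* library above every w1118 library (*Cpr47Ee*, *Cpr62Ba* and *TwdlT*) and 2 had every *foxo* library below (*Cpr57A* and *Cpr72Ec*), against 2.17% and 2.26% of all genes tested. Since *Cpr62Ba* and *TwdlT* met the minimum only through *foxo* groups, the count of 3 is a description. *TwdlT* was the single Tweedle gene to reach 1 TPM. It had 0.813, 0.718, 1.04 and 0.875 TPM in hypoxic *foxo* mutants, against 0.385, 0.372, 0.125 and 0.212 TPM in hypoxic w1118. In normoxia it had 1.54, 1.62, 1.36 and 1.12 TPM in *foxo* mutants, against 0.489, 0.396 and 0.448 TPM in w1118. The normoxic difference passed (log2 difference 0.73, SE 0.127, adjusted p = 0.00139). The hypoxic one had an adjusted p of 0.00366 but was under 1.5-fold on the log2(TPM + 1) scale (0.55, SE 0.117). The ratio of means was alike, at 3.15 in hypoxia and 3.17 in normoxia. *TwdlT* lies in an intron of *RYa-R*, a neuropeptide receptor gene on the same strand, which was itself higher in normoxic *foxo* mutants (group means of 3.94 TPM, against 0.172 TPM in normoxic w1118, log2 difference 2.07). Reads from the intron could not be assigned to either gene from these values.

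The remaining genes were low. *Cpr60D* had 4.01, 4.86, 3.10 and 2.78 TPM in hypoxic *foxo* mutants, against 2.35, 2.12, 0.996 and 1.07 TPM in hypoxic w1118 (log2 difference 0.85, SE 0.222, adjusted p = 0.0144). This did not pass without w1118 hypoxia replicate 3 or replicate 4 (adjusted p = 0.0515 in each). With a pseudocount of 5, or in a fit to only the libraries compared, it was also lost. *Cpr97Eb* had 0.395, 0.601, 0.511 and 0.486 TPM in normoxic *foxo* mutants, against 1.10, 1.06 and 1.63 TPM in normoxic w1118. The libraries did not overlap, and the log2 difference of -0.59 (SE 0.155, adjusted p = 0.0262) did not pass without any 1 of w1118 normoxia replicates 2 and 4 and *foxo* normoxia replicates 1, 3 and 4 (adjusted p between 0.0552 and 0.146). *Cpr97Eb* met the minimum only through the w1118 groups, so this difference is a description. *Cpr73D* and *Cpr78E* passed in no comparison, at 0.908 to 2.42 TPM and 0.893 to 2.80 TPM over all libraries. Of the untested genes, *Cpr64Ac* had 0.443 to 1.05 TPM in hypoxic *foxo* mutants and at most 0.675 TPM elsewhere, *Cpr65Ax2* and *Lcp4* reached 1.52 and 1.22 TPM, and *Acp1*, an adult cuticle protein, had 1.18 TPM in w1118 normoxia replicate 2 and at most 0.851 TPM elsewhere. Other genes that passed in no comparison were *Cpr49Ag*, *Cpr66D* and *Lcp65Ab1*.

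The larval cuticle genes are listed with near-identical copies, between which reads may have been split arbitrarily. *Lcp65Ag2* and *Lcp1* met the minimum only through the *foxo* groups, so their differences between genotypes are a description. *Lcp65Ag2* had 2.05, 1.36, 1.64 and 1.55 TPM in normoxic *foxo* mutants, against 0.960, 0.442 and 0.699 TPM in normoxic w1118 (log2 difference 0.64, SE 0.169, adjusted p = 0.0249). This normoxic difference missed the threshold without any 1 of w1118 normoxia replicates 3 and 4 and *foxo* normoxia replicates 1 and 3 (adjusted p between 0.0544 and 0.146). The hypoxic difference had an adjusted p of 0.0309 but was under 1.5-fold on the log2(TPM + 1) scale (0.52). It passed after rescaling (0.61, adjusted p = 0.00644). The ratio of means was 2.35 in each condition. The sum of *Lcp65Ag1*, *Lcp65Ag2* and *Lcp65Ag3* averaged 2.0 TPM in normoxic *foxo* mutants and 1.18 TPM in normoxic w1118. *Lcp1* had 2.91, 3.87, 2.28 and 0.396 TPM in hypoxic *foxo* mutants, against 0.191, 0.313, 0.359 and 0 TPM in hypoxic w1118 (log2 difference 1.34, SE 0.374, adjusted p = 0.0214). Replicate 4 of the hypoxic *foxo* mutants was close to the w1118 range. The difference missed the threshold without w1118 hypoxia replicate 4 or any 1 of *foxo* hypoxia replicates 1 to 3 (adjusted p between 0.0552 and 0.0724). Its copy *Lcp2* was at 0.158 TPM or less. *Lcp65Ab1* had 1.09 to 2.18 TPM in hypoxic and 1.18 to 2.27 TPM in normoxic *foxo* mutants, and 1.43 to 2.74 TPM in hypoxic and 0.507 to 1.83 TPM in normoxic w1118.

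Genes that act with the cuticle proteins were described from lists chosen with results of these data known. Hypoxia raised 2 of 13 tested genes of chitin synthesis and assembly in w1118 and lowered 2 (12.9% and 8.74% of all genes), and in *foxo* mutants raised 0 and lowered 3 (7.06% and 11.8% of all genes). In both genotypes it lowered *Gasp*, a chitin-binding protein (log2 change -1.19 in *foxo* mutants, adjusted p = 6.52e-05, and -1.12 in w1118, adjusted p = 0.000254). *mmy*, which makes the sugar nucleotide precursor of chitin, rose in w1118 (0.75, adjusted p = 0.00176), but stayed under 1.5-fold after rescaling (0.52). After rescaling, none of the 13 rose in w1118 and 3 fell, against 7.46% and 12.1% of all genes. Of 16 tested genes of chitin turnover, 4 rose and 2 fell in w1118, and 3 rose and 3 fell in *foxo* mutants, beside the same shares of all genes. The chitinase *Cht4* had 53.8, 47.6, 40.5 and 36.4 TPM in hypoxic *foxo* mutants, against 2.52, 3.53, 2.40 and 2.53 TPM in normoxic ones. It had 68.5, 68.9, 50.4 and 43.8 TPM in hypoxic w1118, against 9.73, 6.76 and 7.29 TPM in normoxic w1118. Both rises were wide of any overlap (log2 change 3.60, adjusted p = 3.99e-09 in *foxo* mutants, and 2.71, adjusted p = 2.24e-07 in w1118).

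Of 8 tested genes of tanning and pigment, hypoxia raised 3 and lowered 1 in w1118 (12.9% and 8.74% of all genes), and raised 1 and lowered 4 in *foxo* mutants (7.06% and 11.8%). After rescaling, 2 rose and 1 fell in w1118, against 7.46% and 12.1% of all genes. *Ddc*, which makes the dopamine used to harden and darken cuticle, had 7.13, 4.71, 7.08 and 6.14 TPM in hypoxic *foxo* mutants, against 13.3, 13.9, 11 and 12.4 TPM in normoxic ones. The fall in *foxo* mutants (log2 change -0.92, adjusted p = 0.00633) and the rise in w1118 (2.53, adjusted p = 1.85e-06) differed (interaction -3.44, SE 0.324, adjusted p = 4.37e-05). *b*, which makes the beta-alanine used in tanning, averaged 41.9 ± 9.07 TPM in hypoxic and 9.94 ± 0.982 TPM in normoxic *foxo* mutants (SD, n = 4 each, log2 change 1.95, adjusted p = 2.96e-06).

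Of 7 tested genes of surface hydrocarbon synthesis, 2 rose and 3 fell in w1118 (12.9% and 8.74% of all genes), and 0 rose and 3 fell in *foxo* mutants (7.06% and 11.8%). After rescaling, 1 rose and 3 fell in w1118, against 7.46% and 12.1% of all genes. *eloF*, a female elongase of cuticular pheromones, had 12.4, 10.1, 15.8 and 8.11 TPM in hypoxic *foxo* mutants, against 82.8, 87.4, 64.7 and 55.9 TPM in normoxic ones (log2 change -2.56, adjusted p = 8.00e-07). In w1118 the change was -3.14 (adjusted p = 2.25e-07). Of 4 tested other cuticle and lens proteins, 1 fell in w1118 (8.74% of all genes) and 0 in *foxo* mutants (11.8%). This was *Pcp*, a pupal cuticle protein, with 1.12, 1.53, 1.16 and 1.14 TPM in hypoxic w1118, against 7.82, 7.70 and 7.53 TPM in normoxic w1118 (log2 change -1.96, adjusted p = 8.17e-06). *Pcp* had 7.14 to 13.6 TPM in hypoxic and 9.02 to 15.4 TPM in normoxic *foxo* mutants, and its changes differed between the genotypes (interaction 1.87, SE 0.293, adjusted p = 0.00248).

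Of 3 tested zona pellucida domain genes of the apical matrix, which shapes the cuticle surface, hypoxia raised 1 in each genotype, and lowered 1 in w1118 and 0 in *foxo* mutants. Over all genes, 12.9% rose and 8.74% fell in w1118, and 7.06% rose and 11.8% fell in *foxo* mutants. The apical matrix gene that rose was *dyl*, with 2.24 to 4.03 TPM in hypoxic *foxo* mutants, against 0.00976 to 0.0634 TPM in normoxic ones (log2 change 1.98, adjusted p = 1.12e-05). In w1118 its rise (0.86, adjusted p = 0.0182) did not pass when either w1118 normoxia replicate 2 or 4 was left out (adjusted p = 0.114 and 0.105), and normoxia replicate 3 had 1.35 TPM, within the hypoxic range of 1.05 to 1.76 TPM. Of 15 tested regulators of cuticle genes, 0 rose in either genotype, 2 fell in w1118 (8.74% of all genes) and 3 fell in *foxo* mutants (11.8% of all genes). *br*, the Broad transcription factor of the pupal stage, was 1 of those that fell in both (-1.20 in *foxo* mutants, adjusted p = 0.000112, and -1.30 in w1118, adjusted p = 0.000120).

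**Figure D5:**
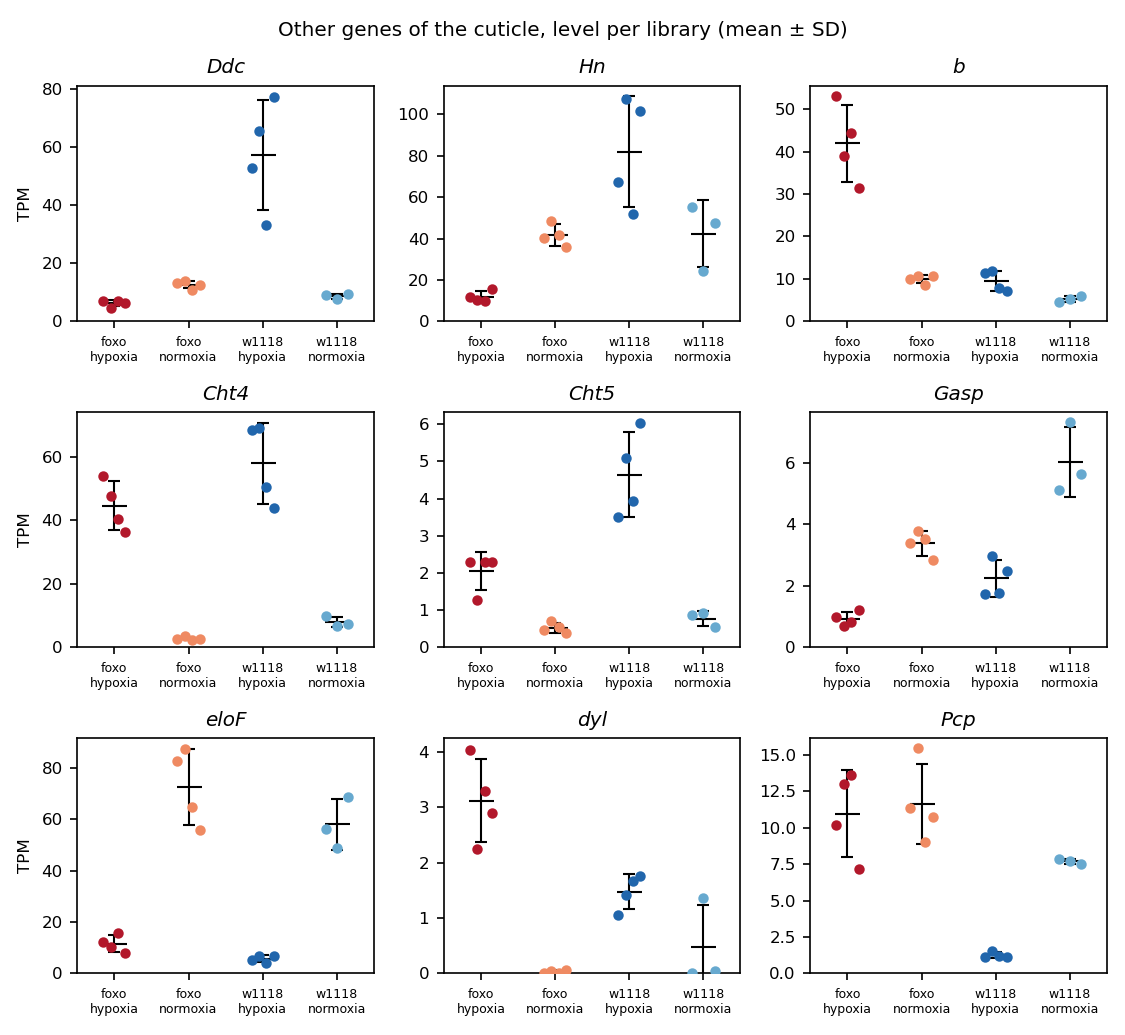
TPM per library (vertical axes, each from 0) of 9 other cuticle genes in the same 4 groups (horizontal axes), with points for libraries and bars for the mean and SD. *Ddc* is high in hypoxic w1118 alone (33.3 to 77.5 TPM), *Pcp* is low in hypoxic w1118 alone (1.12 to 1.53 TPM), and *Cht4* and *eloF* separate hypoxia from normoxia in both genotypes.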

How the data were processed

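Poly-A RNA of whole females was sequenced as directional libraries on an Illumina instrument. The deposited values are TPM per transcript, which the authors obtained with kallisto against RefSeq mRNA of dm6 (kallisto and sleuth are named in the submitters' processing notes; the versions used were not stated). Deposited tables of the authors' hypoxia comparisons, which hold fold changes and p-values, were not used. TPM keeps no read depth, so depth is unknown and no counting error is given. Library totals were 998679 to 999016 TPM.

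Transcripts (34111, of which 138 held no value) were summed to 17117 genes by the gene name in the table, and all 139 pattern genes matched the annotation. log2(TPM + 1) was fitted with limma 3.58.1 (trend) in R 4.3.3, with all 15 libraries in a model of 4 groups that share 1 estimate of the spread. Genes with a mean of at least 1 TPM in a group (10288) were kept. The interaction was called on the adjusted p alone. The fit was tested on simulated data.

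The genes, lists and tests were chosen with earlier results of these data known. Genes named in the text were the 12 highest of the family, up to 6 per comparison and direction with the smallest adjusted p, those nearest 1 TPM, and up to 2 per other list and hypoxia comparison; other genes of the family were then added after their values were seen so that each was accounted for, as were *retinin* and *RYa-R*. Replicates were described by the study as independent, and the labels give only a number. Same-numbered normoxic and hypoxic w1118 libraries deviated together (correlations 0.142, 0.374 and 0.177). Those of *foxo* mutants did not in each pair (-0.071 to 0.331), nor those between genotypes (-0.216 to 0.347), so the number was a block only in an alternative. The other alternatives were no filter, a filter on the mean of all libraries, pseudocounts of 0.1 and 5, median-of-ratios scaling, a fit to only the libraries compared, any fold, leaving out the accessory gland names, and leaving out each library.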

Additional observations from a re-analysis of the deposited data

Results flagged for a closer look

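Groups of 4 libraries were checked for each cuticle gene and for the summed level, 96 in all. In 7 of them, each of a single gene, 1 library lay far from the other 3. About 4.8 would do so by chance (1 in 20). In hypoxic *foxo* mutants, replicate 4 had 8.70 TPM of *Edg91* (5.01 to 5.44 TPM in the others) and 1.95 TPM of *Cpr49Ag* (0.747 to 0.862 TPM). In normoxic *foxo* mutants, replicate 2 had 34.8 TPM of *Cpr67B* (27.2 to 27.5 TPM) and 1.62 TPM of *Cpr67Fb* (0.547 to 0.704 TPM). In hypoxic w1118, replicate 2 had 0.467 TPM of *Cpr62Ba* (0.775 to 0.831 TPM) and 0.621 TPM of *Edg78E* (0.126 to 0.154 TPM), and replicate 3 had 0.709 TPM of *Cpr49Aa* (0.0573 to 0.139 TPM).

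The hypoxia change differed between *foxo* mutants and w1118 by limma's interaction for *Cpr49Ab* (2.22), *Edg91* (2.0) and *Cpr51A* (-1.40). The last 2 passed in all 21 alternatives, and *Cpr49Ab* failed in 12 of them.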

How the results depend on the processing

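Of 43 calls of cuticle genes, 18 held in every alternative and 0 changed direction. With a pseudocount of 5, 3 genes fell in w1118 hypoxia, 2 fell in *foxo* hypoxia, and 3 were higher in *foxo* mutants in normoxia and 3 in hypoxia. With median-of-ratios scaling, 10 fell in w1118 hypoxia, 2 were lower in hypoxic *foxo* mutants and 1 had a positive interaction, and without a filter 1 had. Fitting only the libraries compared left 3 that fell in w1118 hypoxia. Calls lost with another pseudocount or with only the libraries compared are not all named with the genes above. Leaving out 1 library at a time gave 3 to 3 genes that rose and 2 to 7 that fell in w1118 hypoxia, 2 to 3 and 4 to 5 in *foxo* hypoxia, 4 to 8 higher and 2 to 4 lower in normoxic *foxo* mutants, 6 to 11 and 3 to 4 in hypoxic ones, and 1 to 2 positive and 1 to 2 negative interactions.

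With the replicate number as a block, 3 rose and 6 fell in w1118 hypoxia, 2 rose and 6 fell in *foxo* hypoxia, 6 were higher and 2 lower in normoxic *foxo* mutants, 9 higher and 3 lower in hypoxic ones, and 2 interactions were positive and 1 negative. *Cpr49Ab* was added to those that fell in *foxo* hypoxia (limma, adjusted p = 0.0432). The normoxic genotype differences of *Cpr47Ee*, *Lcp65Ag2* and *Cpr97Eb* and the hypoxic one of *Cpr67Fb* were lost (adjusted p between 0.0509 and 0.0690). In w1118 each normoxic library correlated best with the hypoxic library of its own number, a hint from the data and not from the design. With no depth in TPM, the counting error of genes near 1 TPM is unknown. Apart from rescaling, the share of all genes under each alternative is not given. The counts under the alternatives therefore only describe how far the calls held.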
